A study of Mus musculus with 64 samples.

Results

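The genes described here are Tnf, which encodes the cytokine tumour necrosis factor, and the genes of its receptors, Tnfrsf1a (TNFR1) and Tnfrsf1b (TNFR2). They were chosen by name, and all 3 were found among the 5647 genes of a bulk RNA-seq table of mouse microglia, the resident immune cells of the brain. The table held 64 libraries in 17 groups of wild-type C57BL/6J mice, an inbred laboratory strain, with 1 mouse per library. Live cells (7-AAD-) that were CD11b+ with low CD45 had been sorted from brain after enzymatic dissociation. The authors caution that such digestion may activate microglia outside the body and alter their RNA levels. Its part in the levels given here was not tested. The PBS groups were females of 3 (4 mice), 6 (2), 9 (3), 12 (4), 14 (5), 16 (5) and 24 months (3) and males of 3 (4 mice), 6 (4), 9 (4), 12 (2), 16 (4), 19 (5) and 24 months (4). Females of 3, 14 and 24 months (3, 5 and 3 mice) had been given lipopolysaccharide (LPS), a bacterial outer membrane component, at 0.5 mg per kg into the peritoneum and were killed 2 h later. The PBS females of the same ages were their controls and are also part of the ageing series. All results are on RNA from sorted cells, and in such bulk samples fewer cells of a type and less RNA per cell cannot be told apart.

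TNF is made as a membrane protein and is released by the protease ADAM17. It binds TNFR1, which is found on most cells, and TNFR2, which is found mainly on immune, glial and endothelial cells and is engaged best by the membrane form. TNFR1 carries a death domain and assembles TRADD, RIPK1 and ubiquitin ligases into a complex that activates NF-kB and MAP kinases, whereas TNFR2 recruits TRAF proteins directly. NF-kB induces Tnf itself together with chemokines and with inhibitors that shut the complex down, such as A20 (Tnfaip3) and IkBa (Nfkbia). Microglia are a main source of TNF in the brain, and Toll-like receptor 4, which senses LPS, is among its classical inducers.

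The 3 genes lie on different chromosomes. In GENCODE vM21 on GRCm38, Tnf is a compact gene of 4 exons on chromosome 17 (35199381 to 35202007, minus strand). Tnfrsf1a has 10 exons on chromosome 6 (125349362 to 125362484, plus strand), and Tnfrsf1b has 10 exons on chromosome 4 (145213463 to 145246870, minus strand). The 250 bases before the RefSeq start of each gene (GRCm38.p6) are shown as a description. Whether they bear on the levels of the genes was not tested. Capitals mark the TATA motif TATAAA on the gene's strand and the GC box GGGCGG on either strand, which reads CCGCCC where it lies on the opposite strand.
Tnf, chr17:35202008-35202257, minus strand: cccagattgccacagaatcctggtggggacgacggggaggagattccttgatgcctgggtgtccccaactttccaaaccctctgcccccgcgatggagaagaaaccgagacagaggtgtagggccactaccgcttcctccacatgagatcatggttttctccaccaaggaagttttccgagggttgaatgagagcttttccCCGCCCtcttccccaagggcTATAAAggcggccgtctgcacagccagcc
Tnfrsf1a, chr6:125349473-125349722, plus strand: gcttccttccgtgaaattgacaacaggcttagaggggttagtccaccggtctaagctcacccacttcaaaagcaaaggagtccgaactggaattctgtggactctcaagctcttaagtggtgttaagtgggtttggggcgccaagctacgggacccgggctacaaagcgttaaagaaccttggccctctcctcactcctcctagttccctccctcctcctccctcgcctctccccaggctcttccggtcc
Tnfrsf1b, chr4:145246871-145247120, minus strand: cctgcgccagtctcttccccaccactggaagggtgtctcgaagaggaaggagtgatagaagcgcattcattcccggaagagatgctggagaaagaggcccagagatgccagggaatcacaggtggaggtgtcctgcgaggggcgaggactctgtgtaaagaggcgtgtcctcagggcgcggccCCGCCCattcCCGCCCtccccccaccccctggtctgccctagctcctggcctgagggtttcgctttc
The Tnf sequence held TATAAA from 29 to 24 bases before the start, a motif that 7.59% of 32851 promoters of this length held. It also held a GC box from 49 to 44 bases before the start, as 32.7% of the promoters did in either orientation. The Tnfrsf1b sequence held the GC box at 2 places, 67 to 62 and 57 to 52 bases before the start, and no TATAAA. The Tnfrsf1a sequence held neither. Its window lies inside the GENCODE gene, which starts further upstream, so that the RefSeq and GENCODE starts differ for this gene. The NF-kB consensus, searched on both strands, was not found in these windows, and 3.9% of the promoters held it. The GC content was 57.6% for Tnf, 55.6% for Tnfrsf1a and 62.8% for Tnfrsf1b.

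The values are FPKM (fragment numbers set relative to transcript length and sequencing depth) that the authors had adjusted for batches and rounded, so that levels are per length and can be compared between genes. The reads behind each value are not given, so that the depth is unknown. Library sums lay between 408457 and 554459. All 12 microglia markers on the list used (P2ry12, Tmem119, Cx3cr1 and others) were measured, and their summed level lay between 15283 and 28396 in every library. None of 6 neuron markers was in the table. Of 16 neutrophil markers 14 were measured, and 7 of 9 for monocytes, 8 of 8 for border macrophages and 4 of 12 for T and NK cells. None of these measured markers was at 0 throughout a group. In 21 libraries no value lay strictly between 0 and 1, while the others held some. The libraries of the first kind were all those of 16-month females and of 12, 16 and 24-month males, 4 of 5 of the 19-month males and 2 of 4 of the 3-month males. The labels do not say whether this feature marks a batch. In females it cannot be told apart from the age of 16 months.

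Over all 64 libraries, the level of Tnf ranged widely and the levels of its receptors did not. Tnf lay between 12 and 251 FPKM with a median of 72. Tnfrsf1a lay between 47 and 132 with a median of 72, and Tnfrsf1b between 40 and 102 with a median of 65.5. None of the 3 genes was at 0 in any library. On the log2 scale, the means of the 17 groups had an SD of 0.75 for Tnf, 0.25 for Tnfrsf1a and 0.20 for Tnfrsf1b. The pooled SD between mice of a group was 0.59, 0.31 and 0.29 in the same order. Only for Tnf was the SD of the means the larger of these. Means of several mice vary less than single mice. These SDs therefore do not show whether the receptor means differ by more than the spread of the mice would give. The highest group mean of Tnf was in 16-month males (164.5), followed by LPS-treated 14-month females (144.8) and 24-month males (125), and the lowest means were in 3-month males (23) and 3-month females (26). In the order of the 17 means, each of the 16 pairs of neighbours overlapped for each of the 3 genes.

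Tnf was low in young PBS females and higher in every older PBS female. The 4 females of 3 months had values of 24, 28, 25 and 27 (26 ± 1.83, SD, n = 4). At 6 months the values were 77 and 139 (108 ± 43.8, n = 2), and at 9 months they were 58, 63 and 53 (58 ± 5.0, n = 3). All of these mice were above the highest 3-month female. At 6 and 9 months, 35.3% and 21.0% of all genes also did not overlap with 3 months. The 12-month values were 91, 50, 38 and 58 (59.3 ± 22.7, n = 4). The 14-month values were 87, 47, 62, 77 and 111 (76.8 ± 24.4, n = 5). Here too the groups did not overlap with the 3-month females, as for 19.2% and 14.5% of all genes at 12 and 14 months. The mice of an age differed among themselves far more than the young mice did. At 16 months Tnf was 47, 72, 110, 86 and 153 (93.6 ± 40.3, n = 5), and at 24 months it was 60, 50 and 66 (58.7 ± 8.08, n = 3). All 22 females older than 3 months lay between 38 and 153, and the highest 3-month value was 28. At 16 and 24 months, 18.9% and 24.3% of all genes did not overlap with 3 months.

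**Figure D1:**
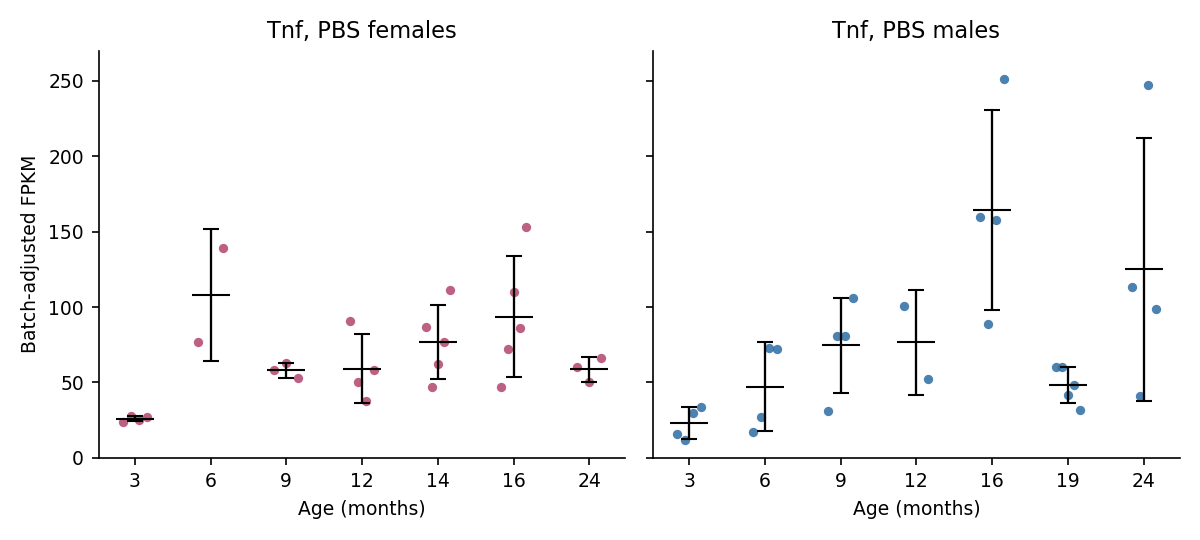
Tnf level (batch-adjusted FPKM) in PBS-treated females (left) and males (right) by age in months. Each point is 1 mouse, and bars are the mean ± SD. The 3-month females sit between 24 and 28, below all older females, while the 3-month males sit between 12 and 34 and overlap with 4 of 23 older males.

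Groups were compared with limma on log2(value + 1), and p-values were Benjamini-Hochberg adjusted across the 5647 genes. To pass, a gene needed an adjusted p below 0.05 and a change of more than 1.5-fold. All 6 female comparisons share the same 4 young mice. Across the female ages, Tnf passed the F-test (adjusted p = 0.00179), as 14.8% of all genes did, and neither receptor passed it. Against 3 months, Tnf rose by 1.95 on the log2 scale at 6 months (SE 0.35, limma adjusted p = 0.0109), where 0.195% of all genes passed in the direction of higher levels. It rose by 1.13 at 9 months (adjusted p = 0.0479), where 0.336% passed, and by 1.09 at 12 months (adjusted p = 0.0189), where 1.31% passed. Tnf was thus among few genes that passed as higher at these ages. The rise was 1.47 at 14 months (SE 0.27, adjusted p = 0.00392), where 1.2% of genes passed, and 1.70 at 16 months (SE 0.27, adjusted p = 0.000312), where 3.01% passed. At 24 months it was 1.14 (SE 0.31, 95% interval 0.50 to 1.77, adjusted p = 0.047), where 1.56% passed. No comparison of neighbouring ages after 3 months passed for Tnf, and the lowest adjusted p among them was 0.24 (24 against 16 months).

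Some of these calls rest on few mice. At 9 and 24 months the call was lost when any of the 7 mice compared was left out, with an adjusted p of 0.0757 to 0.114 and of 0.0772 to 0.172, while the change kept its direction (1.07 to 1.19 and 1.05 to 1.25). It was also lost at 6 months without replicate 2 (1.53, adjusted p = 0.277) and at 12 months without replicate 1 (0.86, adjusted p = 0.0779), the highest mouse of each age. At 14 and 16 months the call was kept without each mouse in turn. The median change of all genes against 3 months was −0.16 at 6 months and −0.19, −0.19, −0.19 and −0.18 at 9, 12, 14 and 16 months, so that after scaling all libraries to an equal total the change of Tnf was larger (2.10, 1.31, 1.26, 1.62 and 1.80 at 6, 9, 12, 14 and 16 months). At 24 months, where that median was −0.02, the change of Tnf was smaller after this scaling (1.06) and did not pass (adjusted p = 0.0714).

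In PBS males, Tnf was equally low at 3 months and reached the highest levels of the series at 16 and 24 months. The 3-month values were 16, 12, 30 and 34 (23 ± 10.6, n = 4), and the 6-month values were 17, 27, 73 and 72 (47.3 ± 29.4, n = 4). At 9 months they were 31, 81, 81 and 106 (74.8 ± 31.5, n = 4), so that at both ages some mice were in the range of the young and others were not. The 12-month values were 101 and 52 (76.5 ± 34.6, n = 2). The 16-month values were 160, 89, 158 and 251 (164.5 ± 66.4, n = 4), and all 4 were above every 3-month and 6-month male. At 19 months Tnf was 60, 60, 42, 48 and 32 (48.4 ± 12.0, n = 5), and at 24 months it was 113, 41, 247 and 99 (125 ± 87.1, n = 4). The level at 19 months was thus below that at either neighbouring age, and the 24-month males spread from 41 to 247. Of 23 males older than 3 months, 19 were above the highest young male. The 12, 16 and 24-month groups did not overlap with the 3-month males, as for 20.8%, 13.8% and 7.7% of all genes. This share was not computed against 6 months.

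Across the male ages, Tnf passed the F-test (limma adjusted p = 0.00209), as 8.36% of all genes did, and neither receptor did. Against 3 months, Tnf rose by 2.81 at 16 months (SE 0.47, 95% interval 1.84 to 3.78, adjusted p = 0.000175), where 4.52% of all genes passed as higher. It rose by 2.24 at 24 months (SE 0.47, 95% interval 1.26 to 3.21, adjusted p = 0.00484), where 2.73% passed. Both calls were kept without each library in turn. At 6, 9, 12 and 19 months the changes were 0.88, 1.65, 1.73 and 1.12 with adjusted p of 0.619, 0.166, 0.193 and 0.241, and these did not pass. The difference between 19 and 16 months was −1.69 (SE 0.45, adjusted p = 0.137). The 3-month males were split by the feature described above, with values of 16 and 12 in the libraries that held nothing between 0 and 1 and 30 and 34 in the others. Among the libraries without such values alone, the change was 3.38 at 16 months (adjusted p = 0.000606) and 2.81 at 24 months (adjusted p = 0.014).

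Over the mice of each sex, Tnf was correlated with age in males (27 mice, Pearson r = 0.533, permutation p = 0.00468, adjusted over 6 relations 0.0281; Spearman coefficient 0.502, p = 0.0082, adjusted 0.0492). In females the correlation did not pass (26 mice, r = 0.418, permutation p = 0.0329, adjusted 0.0987; Spearman coefficient 0.403, p = 0.0428, adjusted 0.128). Without the 2 mice farthest from the median age, r was 0.579 in males and 0.544 in females. Within the male libraries with and without values between 0 and 1, r was 0.368 (11 mice) and 0.551 (16 mice). In females it was 0.379 among the 21 mice with such values, and the other 5 were all of 1 age. Without the 3-month mice, r was 0.316 in males and −0.129 in females, so that the female relation rested on the young mice. Neither receptor passed in either sex, with adjusted p for r between 0.202 and 0.836. Without the 3-month mice, r in females was −0.551 for Tnfrsf1b and −0.285 for Tnfrsf1a. In males these were 0.143 and 0.153. Within the male libraries with and without values between 0 and 1, r was 0.703 and 0.038 for Tnfrsf1a and 0.356 and 0.139 for Tnfrsf1b. No p was computed for these parts.

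Females and males were compared at the 6 ages they share. Tnf was 2.57-fold higher in females at 6 months (log2 1.36, limma adjusted p = 0.195), and the log2 difference of females from males was −0.82 at both 16 and 24 months (adjusted p = 0.65 and 0.418). At 3, 9 and 12 months the differences were 0.28, −0.23 and −0.36. None of these passed, and their 95% intervals were wide, for example from −1.77 to 0.13 at 24 months. The receptors were also highest relative to males at 6 months, by 0.78 for Tnfrsf1a (SE 0.25, adjusted p = 0.127) and 0.65 for Tnfrsf1b (SE 0.23, adjusted p = 0.165). Only 2 females were measured at that age, and without replicate 4 of the 6-month males the Tnfrsf1b difference was 0.78 (adjusted p = 0.0433).

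The levels of markers of other cells also differed between ages, and their part in the Tnf result was not tested. The summed neutrophil markers lay between 7190 and 19081 in 3-month females and had medians of 3920, 3677, 4669, 5926, 9256 and 8270 at 6, 9, 12, 14, 16 and 24 months, against 10958 at 3 months. At 16 months, when Tnf was high, they reached 16124 and overlapped with the young mice. The monocyte markers (335 to 1276, against 346 to 820 at 3 months) had their highest female median there. Of these 7 markers 2 were called higher, where 3.01% of all genes were. In males the neutrophil markers lay between 2919 and 4853 at 3 months, between 9433 and 32875 at 16 months and between 5811 and 10899 at 24 months. Tnf was not called in males of 6, 9, 12 and 19 months. At these ages the neutrophil markers lay between 2310 and 3572, 1429 and 1991, 7952 and 12867, and 7544 and 13969. The monocyte markers lay between 248 and 406, 636 and 1612, and 529 and 827 in males of 3, 16 and 24 months. At 6, 9, 12 and 19 months they lay between 254 and 338, 161 and 216, 637 and 792, and 656 and 1010. How many of these markers were called in males is not given here. The 4 T and NK cell markers summed to 48 to 57 in 3-month and 249 to 376 in 24-month females, and to 48 to 78 and 205 to 507 in males of these ages. The border macrophage markers summed to 564 to 681 in 3-month, 288 to 361 in 12-month and 565 to 816 in 24-month females. Of these 8 markers 6 were called lower at 12 months, 2 at 14 months and 0 at 24 months. In males of 3, 16 and 24 months they summed to 602 to 874, 363 to 582 (2 called lower) and 383 to 761 (0 called lower). The microglia markers summed to 26603 to 28396 in 3-month females and to less in every older group of females, with 7 of 12 called lower at 12 and at 16 months, 5 at 14 months, 1 at 9 and at 24 months and none at 6 months. Of all genes, 7.76% and 6.00% were called lower at 12 and 16 months, 2.11% at 14, 2.32% at 9, 0.531% at 24 and 0.106% at 6 months. In males the microglia markers summed to 23661 to 26662 at 3 months, 15803 to 19245 at 16 months (4 of 12 lower) and 17669 to 19705 at 24 months (1 lower). Of all genes, 1.77% and 0.124% were called lower in males of 16 and 24 months. One of the 4 T and NK cell markers, the chemokine gene Ccl5, is also made by activated microglia and is on the NF-kB target list used below.

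The receptors changed little from 3 to 24 months. Tnfrsf1a was 65, 66, 54 and 66 in 3-month females (62.8 ± 5.85, n = 4) and 58, 64 and 75 in 24-month females (65.7 ± 8.62, n = 3). In males it was 78, 52, 70 and 59 at 3 months (64.8 ± 11.5, n = 4) and 62, 97, 70 and 72 at 24 months (75.3 ± 15.1, n = 4). The groups overlapped in both sexes. The change from 3 to 24 months was 0.06 in females (95% interval −0.46 to 0.59, limma adjusted p = 0.925) and 0.21 in males (−0.21 to 0.64, adjusted p = 0.755). The female value was close to 0 and turned to −0.01 after scaling to an equal total. Its highest group means in PBS mice were 100.5 ± 16.3 in 6-month females (112 and 89) and 105.5 ± 37.5 in 12-month males (79 and 132), each from 2 mice. The change at 6 months in females, 0.67 (SE 0.29, limma adjusted p = 0.378), did not pass. With only these groups in the fit, 2 against 4 mice, it passed (adjusted p = 0.013). The share of all genes that passed in that fit is not given here, so that this call cannot be set against it.

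Tnfrsf1b was 63, 50, 61 and 71 in 3-month females (61.3 ± 8.66, n = 4) and 55, 47 and 55 in 24-month females (52.3 ± 4.62, n = 3). In males it was 79, 44, 62 and 58 at 3 months (60.8 ± 14.4, n = 4) and 56, 83, 66 and 77 at 24 months (70.5 ± 12.0, n = 4). The differences were −0.22 in females (95% interval −0.65 to 0.22, limma adjusted p = 0.631) and 0.23 in males (−0.17 to 0.62, adjusted p = 0.696). The widest step between neighbouring ages was in males, from 54, 41, 41 and 66 at 6 months (50.5 ± 12.0) to 70, 91, 72 and 85 at 9 months (79.5 ± 10.1). These mice did not overlap, but the share of all genes without overlap was not computed for this pair. The change of 0.66 (SE 0.19, limma adjusted p = 0.0842) did not pass. Without replicate 4 of the 6-month males it was 0.80 and passed (adjusted p = 0.0202).

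At the ages between, Tnfrsf1a in females was 71 ± 7.0 at 9 months (64, 71 and 78), 77 ± 20.1 at 12 months (85, 90, 47 and 86), 75 ± 30.0 at 14 months (66, 66, 49, 67 and 127) and 76.8 ± 19.9 at 16 months (47, 102, 76, 84 and 75). In males it was 57.8 ± 5.56 at 6 months (58, 50, 60 and 63), 85.8 ± 23.2 at 9 months (72, 99, 61 and 111), 71.5 ± 5.20 at 16 months (73, 66, 69 and 78) and 80.2 ± 22.6 at 19 months (116, 76, 57, 67 and 85). All of these groups overlapped with the 3-month mice of their sex. Tnfrsf1b in females was 78.5 ± 10.6 at 6 months (86 and 71), 76.7 ± 5.51 at 9 months (77, 82 and 71), 67 ± 14.4 at 12 months (65, 68, 50 and 85), 66.2 ± 15.9 at 14 months and 61.6 ± 14.9 at 16 months (40, 82, 63, 61 and 62). In males it was 72.5 ± 7.78 at 12 months (67 and 78), 58.8 ± 11.5 at 16 months (61, 44, 72 and 58) and 60 ± 9.90 at 19 months (67, 62, 53, 47 and 71). These groups also overlapped with the 3-month mice, and neither receptor passed against 3 months at any age.

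**Figure D2:**
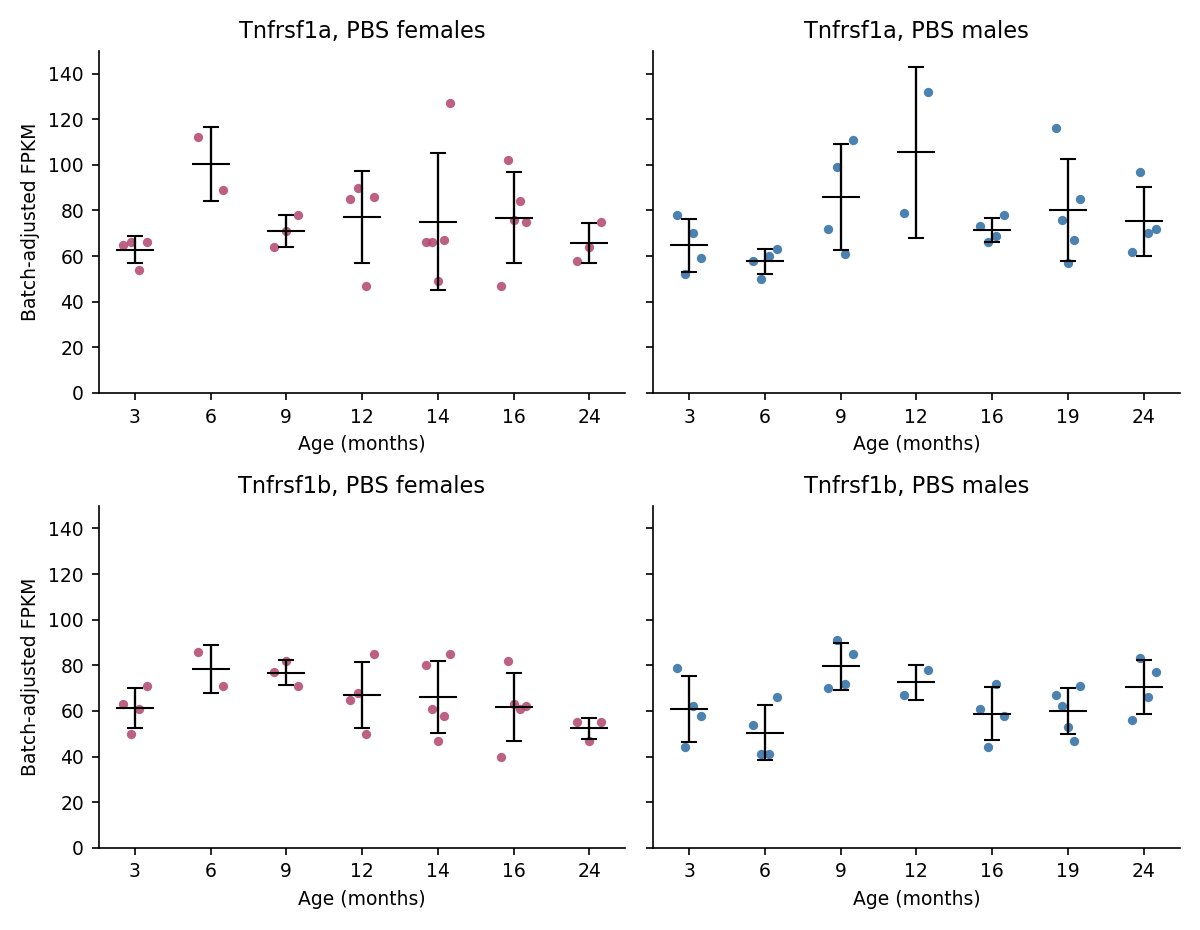
Levels of Tnfrsf1a (top) and Tnfrsf1b (bottom) in batch-adjusted FPKM in PBS-treated females (left) and males (right) by age in months. Each point is 1 mouse, and bars are the mean ± SD. The group means lie between 57.8 and 105.5 for Tnfrsf1a and between 50.5 and 79.5 for Tnfrsf1b.

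On the per-length scale, Tnfrsf1a was the more abundant receptor transcript in most mice. The ratio of Tnfrsf1b to Tnfrsf1a had a median of 0.85 over the 64 libraries, with a range of 0.482 to 1.21, and it was over 1 in 14 of them. Its group means lay between 0.72 (12-month males, 2 mice) and 1.09 (9-month females, 3 mice). The ratio of Tnf to the sum of both receptors was 0.211 ± 0.024 in 3-month females (n = 4) and 0.186 ± 0.088 in 3-month males (n = 4). It was 0.496 ± 0.041 in 24-month females (n = 3), 1.24 ± 0.44 in 16-month males (n = 4) and 0.917 ± 0.671 in 24-month males (n = 4). These ratios compare transcript levels and not proteins.

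LPS raised Tnf at 3 and 14 months, and at 24 months the change did not pass. In 3-month females Tnf was 24, 28, 25 and 27 with PBS (26 ± 1.83, n = 4) and 73, 94 and 106 with LPS (91.0 ± 16.7, n = 3). The groups did not overlap, as for 33.9% of all genes, and Tnf rose by 1.75 on the log2 scale (SE 0.25, 95% interval 1.25 to 2.26, limma adjusted p = 4.57e-05), or 3.37-fold. At 14 months it was 87, 47, 62, 77 and 111 with PBS (76.8 ± 24.4, n = 5) and 120, 91, 158, 171 and 184 with LPS (144.8 ± 38.4, n = 5). Here 4 of 5 LPS mice were above all PBS mice, and Tnf rose by 0.92 (SE 0.20, 95% interval 0.50 to 1.34, adjusted p = 0.0178), or 1.89-fold. At 24 months it was 60, 50 and 66 with PBS (58.7 ± 8.08, n = 3) and 85, 83 and 55 with LPS (74.3 ± 16.8, n = 3). In that comparison 2 of 3 LPS mice were above all PBS mice, and the difference was 0.32 (SE 0.26, 95% interval −0.22 to 0.86, adjusted p = 0.441). Of the 3 genes only Tnf passed, at 3 and 14 months, where 6.16% and 1.4% of all genes passed as higher and 5.08% and 0.407% as lower. At 24 months none of the 3 passed, with 4.27% of all genes higher and 5.44% lower.

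**Figure D3:**
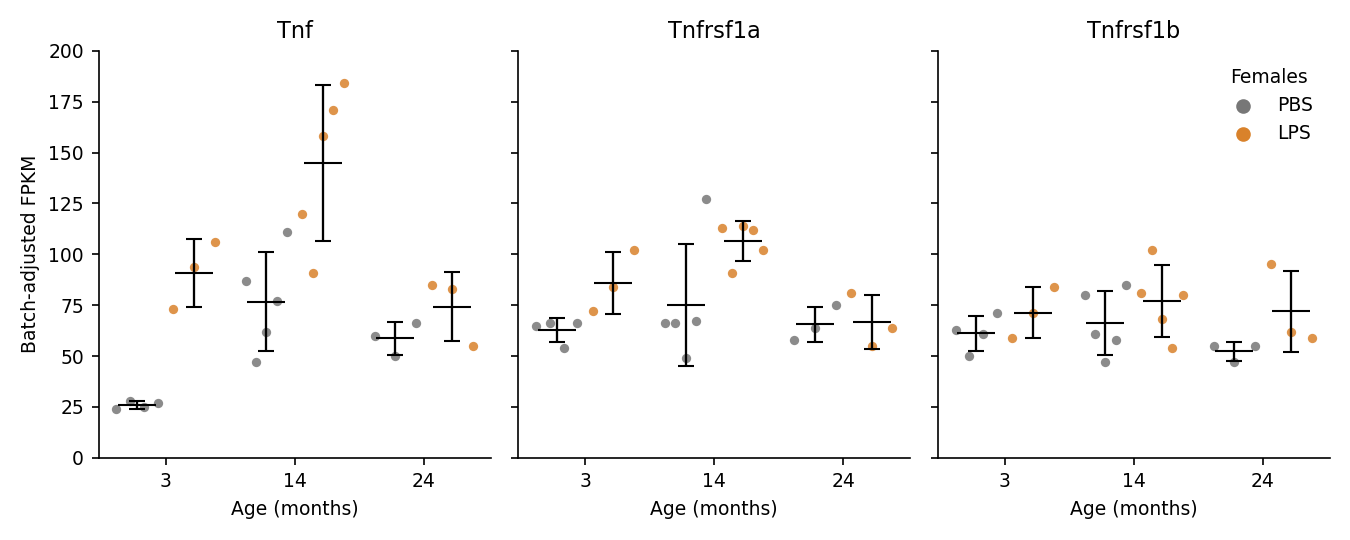
Levels of Tnf, Tnfrsf1a and Tnfrsf1b (batch-adjusted FPKM) in females of 3, 14 and 24 months given PBS (grey) or LPS (orange). Each point is 1 mouse, and bars are the mean ± SD. For Tnf, all 3 LPS mice are above all PBS mice at 3 months, 4 of 5 at 14 months and 2 of 3 at 24 months.

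The rise at 3 months kept its call under every alternative tried. At 14 months it lost it when only the PBS and LPS mice of that age were fitted (adjusted p = 0.143) and without any of 4 single mice, LPS replicates 3, 4 and 5 and PBS replicate 2 (adjusted p between 0.0517 and 0.0664), with changes of 0.76 to 0.88. The median change of all genes was −0.14 at 3 months, 0.02 at 14 months and −0.15 at 24 months. After scaling all libraries to an equal total, the change of Tnf was 1.85, 0.87 and 0.48 at these ages, and the split of genes that passed as higher and lower moved from 348 and 287 to 430 and 144 at 3 months, from 79 and 23 to 46 and 34 at 14 months, and from 241 and 307 to 416 and 106 at 24 months.

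Whether the response to LPS itself differed between ages was tested as an interaction. The response of Tnf at 24 months was lower than at 3 months by 1.44 on the log2 scale (difference −1.44, SE 0.36, 95% interval −2.18 to −0.69), and it did not pass (limma adjusted p = 0.102). In that comparison limma called 0 of 5647 genes, while 653 had an unadjusted p under 0.05. With only the 4 groups involved in the fit, the adjusted p was 0.0219. The share of all genes that passed in that fit is not given here. The difference between 14 and 3 months was −0.83 (SE 0.32, adjusted p = 0.344) and that between 24 and 14 months −0.60 (SE 0.33, adjusted p = 0.35). The PBS level differed between these ages, 26 at 3 months against 76.8 and 58.7 at 14 and 24 months, and the same PBS mice enter both the age and the LPS comparisons. The levels reached with LPS were 91, 144.8 and 74.3. Among LPS mice, Tnf at 24 months (55 to 85) was below all 14-month values (91 to 184), but the share of all genes without overlap was not computed here. It fell by 0.93 from 14 to 24 months (SE 0.23, 95% interval −1.42 to −0.45, limma adjusted p = 0.0268), where 1.81% of all genes passed as lower. This call was lost with only these 2 groups in the fit (adjusted p = 0.109), with the replicate block (adjusted p = 0.0624), and without any of LPS replicates 3 and 4 of 14 months and 2 and 3 of 24 months (changes of −1.03 to −0.73, adjusted p of 0.0536 to 0.115). The border macrophage markers summed to 227 to 389 in the 14-month and 457 to 797 in the 24-month LPS mice, without overlap. Of these markers 4 of 8 were called higher, as were 3 of 14 neutrophil markers, against 2.2% of all genes. The part of these cells in the difference was not tested. From 3 to 24 months the difference was −0.30 (adjusted p = 0.768), and from 3 to 14 months it was 0.64 (adjusted p = 0.311).

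Neither receptor passed in any LPS comparison. Tnfrsf1a was 65, 66, 54 and 66 with PBS and 72, 84 and 102 with LPS at 3 months (86.0 ± 15.1, n = 3). The groups did not overlap, as for 33.9% of all genes. The change was 0.44 (SE 0.22, limma adjusted p = 0.195). At 14 months it was 66, 66, 49, 67 and 127 with PBS (75.0 ± 30.0, n = 5) and 113, 91, 114, 112 and 102 with LPS (106.4 ± 9.86, n = 5). All 5 LPS mice were above 4 of the PBS mice and below the fifth, and the change was 0.57 (SE 0.18, adjusted p = 0.0919). Without that mouse, PBS replicate 5, it was 0.78 (adjusted p = 0.00336) and passed. At 24 months Tnfrsf1a was 58, 64 and 75 with PBS and 81, 55 and 64 with LPS (66.7 ± 13.2, n = 3), a difference of 0.01 (95% interval −0.46 to 0.49, adjusted p = 0.982) that took either sign when single mice were left out. Among LPS mice it was lower at 24 than at 14 months by 0.68 (SE 0.21, adjusted p = 0.0558), which did not pass. Without LPS replicate 1 of 24 months it was −0.83 and passed (adjusted p = 0.0419).

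Tnfrsf1b was 63, 50, 61 and 71 with PBS and 59, 71 and 84 with LPS at 3 months (71.3 ± 12.5, n = 3), and the groups overlapped. At 14 months it was 80, 61, 47, 58 and 85 with PBS (66.2 ± 15.9, n = 5) and 81, 102, 68, 54 and 80 with LPS (77.0 ± 17.7, n = 5). The changes at these ages were 0.21 and 0.22 (limma adjusted p = 0.57 and 0.6). At 24 months it was 55, 47 and 55 with PBS (52.3 ± 4.62, n = 3) and 95, 62 and 59 with LPS (72.0 ± 20, n = 3), without overlap, as for 26.5% of all genes. The change there was 0.42 (SE 0.23, 95% interval −0.06 to 0.90, adjusted p = 0.233).

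**Figure D4:**
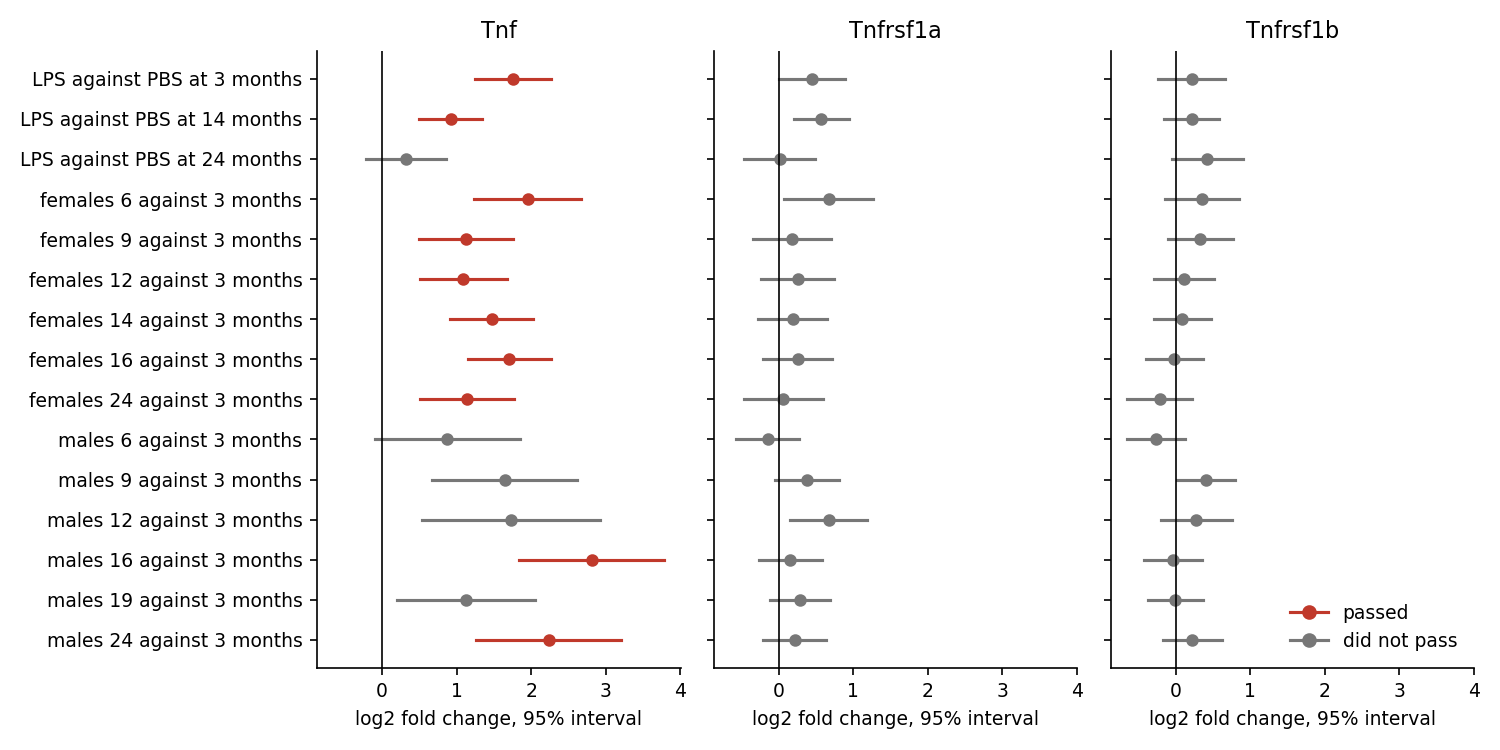
Log2 fold changes of the 3 genes from limma for LPS against PBS at 3 ages and for each older age against 3 months in females and males, with 95% intervals. Red marks comparisons that passed, which Tnf reaches in 10 of 15 comparisons and the receptors in 0 of 15. In those 10, between 0.195% and 6.16% of all genes passed as higher. The comparisons are not independent, because those against 3 months share the young mice of their sex. Some of these calls were lost when single mice were left out.

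The neutrophil markers summed to 7190 to 19081 with PBS and 2294 to 3951 with LPS at 3 months, to 2351 to 6804 and 2083 to 4410 at 14 months, and to 3302 to 9040 and 4197 to 16635 at 24 months. At 3 months they were thus lower in the LPS mice, in which Tnf was higher. The monocyte markers summed to 346 to 820 with PBS and 328 to 531 with LPS at 3 months, to 222 to 556 and 176 to 787 at 14 months, and to 194 to 924 and 473 to 1192 at 24 months. The T and NK cell markers, Ccl5 among them, summed to 48 to 57 with PBS and 173 to 278 with LPS at 3 months, to 109 to 333 and 143 to 346 at 14 months, and to 249 to 376 and 75 to 250 at 24 months. Of these 4 markers 2 were called higher at 3 months (6.16% of all genes), 1 lower at 14 months (0.407%) and 2 lower at 24 months (5.44%). The microglia markers summed to 26603 to 28396 with PBS and 19292 to 23147 with LPS at 3 months, without overlap. Of these markers 6 of 12 were called lower at 3 months (5.08% of all genes). At 14 and 24 months 1 of 12 and none were called (1.81% and 9.7% of all genes in either direction). The part of these cells in the LPS results was not tested.

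Across all libraries the receptors followed each other more than they followed the ligand. On log2 values over the 64 libraries, Pearson's r was 0.673 between Tnfrsf1a and Tnfrsf1b, 0.429 between Tnf and Tnfrsf1a and 0.275 between Tnf and Tnfrsf1b. After the mean of each group was subtracted, these were 0.653, 0.221 and 0.150. They are descriptions over libraries that share groups, and no p was computed. The 5 genes most like Tnf were Nfkbiz (r = 0.781), which encodes the inducible inhibitor-like protein IkBz, the chemokine gene Ccl3 (0.771), the chemokine-binding receptor gene Ccrl2 (0.749), Ccl4 (0.747) and Tnfaip3 (0.737). After the group means were subtracted, r with Tnf was 0.62, 0.632, 0.437, 0.556 and 0.409 for these genes. The 5 most like Tnfrsf1a were Arhgef2 (0.789), Plekho2 (0.769), Sh3bp2 (0.74), Tmem184b (0.734) and Mgrn1 (0.733). Those most like Tnfrsf1b were Pik3ap1 (0.776), an adaptor of PI3 kinase, Gak (0.765), Tmem184b (0.756), Arhgap27 (0.741) and Tbc1d9b (0.728). Tmem184b was thus among the 5 for both receptors, and none of the 5 for Tnf was on either receptor's list.

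The rest of the pathway was described by lists, of which 82 of 148 genes were in the table. At 3 months of age, 33 of the 82 were higher with LPS (40.2%, against 6.16% of all genes) and 5 lower (6.1%, against 5.08%). Their median change was 0.41, and that of all genes −0.14. At 14 months 8 were higher (9.76%, against 1.4%) and 1 lower, with a median of 0.24 against 0.02. At 24 months 13 were higher (15.9%, against 4.27%) and 4 lower (4.88%, against 5.44%), with a median of 0.29 against −0.15. After scaling all libraries to an equal total these counts were 37 and 3, 6 and 1, and 23 and 1. None of the genes that had passed changed its sign under that scaling. The lists were chosen with results of these data known and were given no test of their own.

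**Figure D5:**
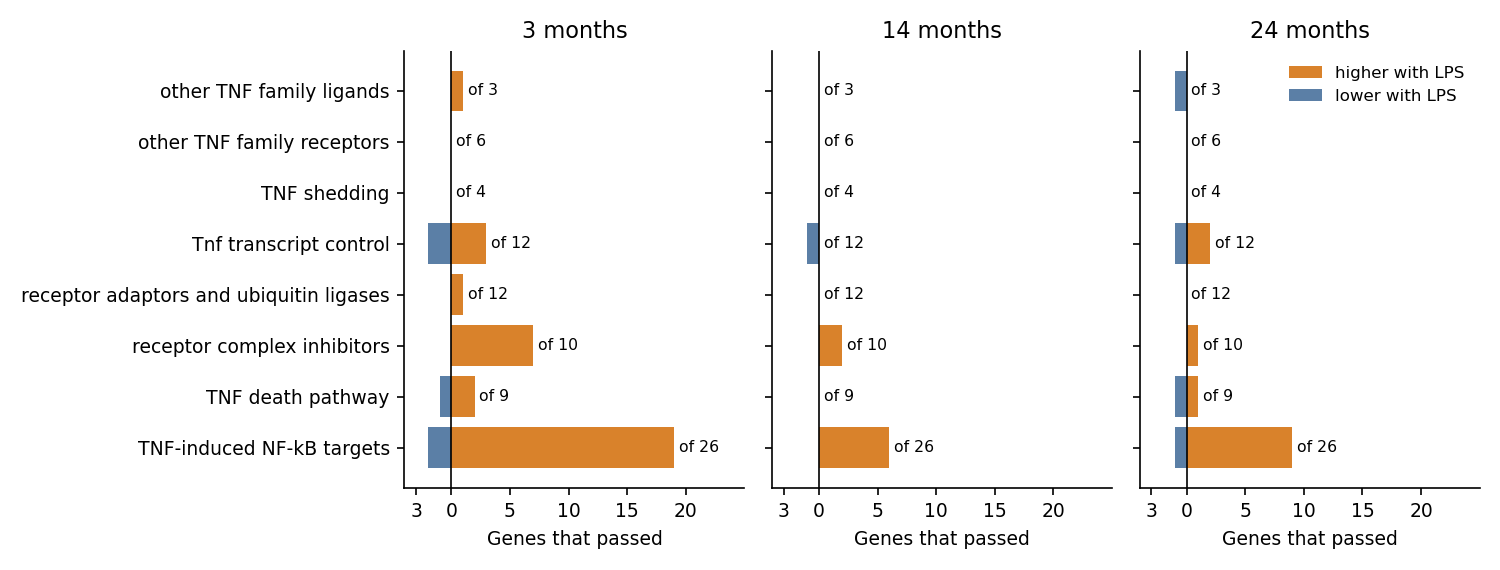
Number of genes in each list that passed with LPS against PBS in females of 3, 14 and 24 months, higher (orange, right of 0) or lower (blue, left of 0), with the number of measured genes beside each bar. The NF-kB targets have 19, 6 and 9 higher genes of 26, and the inhibitors 7, 2 and 1 of 10.

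Among other ligands of the family 3 of 17 were measured. Tnfsf9, which encodes the ligand 4-1BBL, rose at 3 months of age from 11 ± 1.83 with PBS to 55.7 ± 11.5 with LPS (log2 2.23, SE 0.28, limma adjusted p = 8.46e-06). Tnfsf13b, which encodes the B cell survival factor BAFF, fell by 0.97 at 24 months, from 50 ± 2.65 to 27 ± 13.5 (SE 0.27, adjusted p = 0.0267). After scaling to an equal total, Tnfsf13b was at −0.81 and did not pass (adjusted p = 0.0537). Of the 26 other receptors of the family 6 were measured, and none passed at any of the 3 ages. The same held for the 4 measured genes of 9 that process the protein, among them Adam17 and Adam10, as deposited, while 1 of the 4 passed as higher at 24 months after scaling to the same total.

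Of 16 genes that control the Tnf transcript or its translation 12 were measured. At 3 months Map3k8, which encodes the kinase TPL2 upstream of ERK, rose from 13 ± 0.817 to 60.7 ± 3.51 (log2 2.14, SE 0.28, limma adjusted p = 1.46e-05). Mapkapk2, the kinase MK2 that favours Tnf translation, rose by 0.88 (adjusted p = 0.0351) and Litaf, a gene named as an LPS-induced TNF factor, by 0.81 (adjusted p = 0.0118). Zfp36l2, a protein of the family that binds AU-rich elements and promotes mRNA decay, fell by 1.27 (64.8 ± 11.5 to 26 ± 2.0, adjusted p = 0.00021), and Mapk14, the kinase p38 alpha, fell by 0.95 (adjusted p = 0.00839). At 14 months Zfp36l2 was the only one of the 12 that passed (−1.09, SE 0.17, adjusted p = 0.000794). At 24 months Map3k8 rose by 1.34 (adjusted p = 0.00796) and Litaf by 0.71 (adjusted p = 0.0453), while Dusp1, a phosphatase of MAP kinases, fell by 0.73 (2063 ± 340 to 1240 ± 180, adjusted p = 0.0457). After scaling to an equal total, Dusp1 was at −0.56 and did not pass (adjusted p = 0.0954).

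Of 20 adaptors and ubiquitin ligases of the receptor complexes 12 were measured, and only Birc3 passed. Birc3 encodes the ubiquitin ligase cIAP2 and is itself an NF-kB target. It rose at 3 months from 16.3 ± 1.5 to 51.3 ± 4.16 (log2 1.60, SE 0.31, limma adjusted p = 0.00106). The core components Tradd, Traf2 and Ripk1 were measured and did not pass at any of the 3 ages, and after scaling to the same total 2 of the 12 passed at 3 months.

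Of the 10 measured inhibitors of the complex (of 14), 7 were higher at 3 months, where 6.16% of all genes were, none was lower and 3 did not pass. Tnfaip3, which encodes the ubiquitin-editing enzyme A20, rose from 24.3 ± 1.89 to 70.0 ± 5.57 (log2 1.49, SE 0.27, limma adjusted p = 0.000531). Its partner Tnip1 rose by 1.40 (adjusted p = 0.00155), Tank, an adaptor of TRAF proteins, by 1.39 (adjusted p = 0.00434) and Nfkbib, which encodes IkBb, by 1.21 (adjusted p = 0.000163). At 14 months 2 of the 10 passed, Nfkbib (0.85, adjusted p = 0.00485) and Tnip2 (0.63, adjusted p = 0.0341), of which Tnip2 did not pass after scaling to an equal total (0.58, adjusted p = 0.0652). At 24 months Tnip2 alone did (0.68, adjusted p = 0.0381). The PBS level of Tnfaip3 was 63.2 ± 15.6 at 14 months and 47.3 ± 12.7 at 24 months, close to the LPS levels of 61.0 ± 11.2 and 64.7 ± 29.7 at these ages.

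Of 12 genes of the death pathway 9 were measured. At 3 months Bcl2a1d and Bcl2a1b, which encode survival proteins of the BCL2 family, rose by 1.29 (limma adjusted p = 0.00162) and 0.71 (adjusted p = 0.0171). They are near-identical copies, so that reads may have been divided between them and each value is uncertain. Bid, which links caspase 8 to mitochondria, fell by 0.62 at 3 months (adjusted p = 0.0461) and by 0.72 at 24 months (adjusted p = 0.0363). After scaling to an equal total, Bid passed at neither age (−0.52 and −0.56, adjusted p = 0.0948 and 0.0921). Cflar, which encodes the caspase 8 inhibitor cFLIP, rose by 0.66 at 24 months (31.0 ± 1.73 to 49.7 ± 5.86, adjusted p = 0.00931). None passed at 14 months.

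The list of NF-kB targets had the most called genes, 19 higher and 2 lower of 26 measured at 3 months, where 6.16% of all genes were higher and 5.08% lower. It had been chosen with results of these data known. The chemokine gene Cxcl10 rose from 4.75 ± 0.50 to 52.3 ± 8.08 (log2 3.21, SE 0.39, limma adjusted p = 7.8e-06) and Ccl5 from 20.5 ± 2.65 to 188 ± 45.8 (3.11, adjusted p = 6.84e-06). Socs3, a feedback inhibitor of cytokine receptors, rose by 2.43 (adjusted p = 0.000314). The matrix protease gene Mmp9, which is also on the neutrophil marker list, fell by 2.79 (58.3 ± 19.9 to 7.33 ± 2.31, adjusted p = 0.0109). At 14 months 6 passed as higher, where 1.4% of all genes did, with Relb, an NF-kB subunit (1.43, adjusted p = 0.0432), Cxcl10 (1.41, adjusted p = 0.0217), the mitochondrial superoxide dismutase gene Sod2 (1.28, adjusted p = 0.000359) and the stress gene Ier3 (1.26, adjusted p = 0.00414) having the largest changes. Relb did not pass after scaling to an equal total (1.38, adjusted p = 0.0652). At 24 months 9 were higher and 1 lower, where 4.27% of all genes were higher and 5.44% lower. The neutrophil chemokine gene Cxcl2 rose there from 11.7 ± 0.58 to 72.3 ± 19.1 (2.50, SE 0.24, adjusted p = 6.3e-07), Cxcl10 by 2.19 (adjusted p = 0.00308), Il1b by 1.83 (68.0 ± 4.36 to 264.7 ± 118, adjusted p = 0.000705) and Socs3 by 1.62 (adjusted p = 0.0226). Tnf was therefore not called at an age at which 9 of these 26 genes were, and whether its response differed from theirs was not tested.

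With age alone, 10 of the 82 pathway genes were higher in 24-month than in 3-month males (12.2%, against 2.73% of all genes) and 5 in 24-month females (6.1%, against 1.56%), and none was lower in either. At 16 months 19 were higher in males (23.2%, against 4.52%) and none lower, and in females 17 were higher (20.7%, against 3.01%) and 3 lower. The ligand gene Ltb, which encodes lymphotoxin beta, rose in males by 2.02 at 16 months (limma adjusted p = 0.000108) and by 1.77 at 24 months (adjusted p = 0.00151). Tnfaip3 rose in males by 1.41 and 1.43 at these ages (adjusted p = 0.000359 and 0.000939) and in females by 1.09 at 16 months (adjusted p = 0.00631). Ltb and Tnfaip3 were named here after their values were seen. No other receptor of the family and no shedding gene passed in these 4 comparisons.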

How the data were processed

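Libraries of sorted microglia from single mice had been sequenced, and the submitters' processing notes name RSEM 1.2.12, Bowtie2 2.2.5 and HISAT2 2.0.4. The deposited values are a score: the authors adjusted FPKM values between batches with ComBat_seq and rounded most of them, keeping genes with a mean of at least 10. They are not counts, so that no count model was used, the depth is unknown and the number of mice limits the precision. The batches are not given in the sources used here, and the adjustment may have changed differences between ages.

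Values were analysed as log2(value + 1) with limma 3.58.1 in R 4.3.3, with a variance trend and Benjamini-Hochberg adjustment over 5647 genes. Fold changes are on this scale and understate those of low genes. Female ages, male ages and the 6 LPS experiment groups were each fitted together, and the sexes in a joint fit of both. Groups and replicate numbers came from the sample titles. Age correlations used 100000 permutations, two-sided (SciPy 1.17.1, Python 3.11.15). In simulated data for LPS at 3 months with 5647 genes, 70% of genes changed by 1 on the log2 scale and 96% of those changed by 2 were recovered. For the LPS response at 24 minus 3 months these were 32% and 89%.

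The members, lists and tests were chosen with earlier results of these data known. Named genes were the 3 members, up to 4 called genes with the largest change per pathway list and LPS comparison, and the 5 genes most correlated with each member, and others are marked as such or illustrate a list that did not pass. Alternatives were other pseudocounts (0.5 and 5), a mean filter of 50, scaling to the same total or by median ratios, no variance trend, robust variance, only the groups compared, a replicate block, libraries split by values between 0 and 1, and each library left out. Promoters and gene models came from RefSeq and GENCODE tables for GRCm38, in which all 3 genes were found. The RefSeq and GENCODE starts of Tnfrsf1a differ.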

Additional observations from a re-analysis of the deposited data

Results flagged for a closer look

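Dixon's test was applied 33 times, to each of the 3 genes in each group of 4 or 5 mice. In 3 of these tests a mouse lay far from the others, all for Tnfrsf1a. Chance gives about 1 in 20 tests, but the tests of the 3 genes share the same mice and are not independent. In 3-month PBS females 1 mouse was at 54 and the others at 65 to 66 (gap over range 0.917). In 12-month PBS females 1 mouse was at 47 and the others at 85 to 90 (0.884). In 14-month PBS females 1 mouse was at 127 and the others at 49 to 67 (0.769), and this is the mouse without which Tnfrsf1a passed with LPS at that age.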

How the results depend on the processing

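For the 42 results on the 3 genes, 680 of 729 alternative values kept their direction and their side of the threshold. A result that had not passed counted as kept when it again did not pass, so that this share does not measure how firm the calls were. In 33 values a call was lost, in 9 a call was gained and in 7 the direction turned. The causes of these changes were not tested. With only the groups compared in the fit, Tnf with LPS at 14 months was 0.92 (limma adjusted p = 0.143), its response at 24 minus 3 months −1.44 (0.0219), LPS mice of 24 against 14 months −0.93 (0.109) and males of 19 months 1.12 (0.0455), and 1037, 33, 91 and 470 genes passed with LPS at 3, 14 and 24 months and in 24-month females, against 635, 102, 548 and 118. The totals for the other comparisons named are not given here for such fits. For Tnf in 24-month females the call was lost with scaling to the same total (1.06, 0.0714), median-ratio scaling (1.14, 0.0521), no variance trend (1.14, 0.0624) and a pseudocount of 5 (1.03, 0.0511), and in 9-month females with no trend (1.13, 0.0565) and a pseudocount of 5 (1.02, 0.0504). Tnfrsf1a in 24-month females turned to −0.015 with scaling to the same total. For mice with the same number in the titles, the median correlation of deviations was 4.26e-05 in females, −0.0044 in males and 0.014 in the LPS experiment. It was above 0.1 for 15 of 64, 16 of 72 and 13 of 49 pairs. The numbers were not taken as pairs. In some groups the titles number the mice otherwise than the columns do, so that this check and the replicate block may have missed shared processing. With the replicate block, Tnf was −0.74 in LPS mice of 24 against 14 months (0.0624) and 2.17 in 12-month males (0.0297). With a mean of at least 50, 228, 46, 184 and 70 genes passed with LPS at 3, 14 and 24 months and in 24-month males (161 as reported), and 40 in those males among libraries without values between 0 and 1. With 1 library left out, Tnf ranged from 0.76 to 1.07 with LPS at 14 months, from −1.09 to −0.73 in LPS mice of 24 against 14 months, from 1.53 to 2.38, 1.07 to 1.19, 0.86 to 1.27 and 1.05 to 1.25 in females of 6, 9, 12 and 24 months, and from −0.83 to 0.11 between the sexes at 12 months. Tnfrsf1a ranged from 0.44 to 0.78 and −0.14 to 0.14 with LPS at 14 and 24 months and from −0.037 to 0.15 in 24-month females. Genes passing ranged from 331 to 623, 42 to 146 and 203 to 577 with LPS at 3, 14 and 24 months, and from 20 to 106 and 90 to 161 in 24-month females and males. Groups of 2 leave 1 mouse, which was assumed to vary like the other groups. The depth is unknown, so that its limit on these values could not be given.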
